A study of Mus musculus with 17 samples.

Results

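The proteasome genes were all genes of the deposited table whose symbol begins with Psma, Psmb, Psmc, Psmd, Psme, Psmf or Psmg directly followed by a digit. That rule gave 49 of 18262 genes. Of these, 48 reached 0.5 FPKM (fragments per kilobase of gene and 1000000 fragments) in at least 4 lung libraries and were tested together with 10284 genes in all, and Psma8, a subunit restricted to germ cells, did not. Psmc3ip matches the symbol rule but encodes no proteasome subunit, and it is kept apart in the groups below.

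RNA was sequenced from lungs of C57BL/6 mice in 4 groups of 4 libraries. The naive_untreated lungs came from mice with neither tumor nor cells. The naive_GEMy lungs came from tumor-free mice given 8000000 IL12-GEMy cells, myeloid cells engineered to secrete interleukin-12, into a vein. The tumor_untreated mice carried M3-9-M ffluc-mCherry rhabdomyosarcoma, started from 500000 cells in the gastrocnemius muscle, and the tumor_GEMy mice carried that tumor and received the cells on day 12. Lungs were taken 3 days after the cells, day 15 after tumor inoculation. One further library, GEMy_product, is the injected cell product itself, grown from bone marrow with lentiviral transduction, and it has no replicate. The labels do not say whether the libraries of a group are separate mice, and the p-values rest on library-to-library spread alone, which may be technical. In the sample descriptions of the tumor groups, every tumor_untreated library carries the number 1 and every tumor_GEMy library the number 2, so whatever that number stands for cannot be told apart from the treatment in tumor-bearing mice.

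The proteasome degrades ubiquitin-tagged proteins inside a barrel of alpha and beta rings, capped by a regulatory particle of ATPases and lid subunits. In most tissues the cutting is done by Psmb5, Psmb6 and Psmb7. Cells exposed to interferon-gamma are known to make Psmb8, Psmb9 and Psmb10 instead, which take the places of Psmb5, Psmb6 and Psmb7 in newly built particles, and the PA28 activator of Psme1 and Psme2, which opens the barrel. These immune forms are known for making peptides for MHC class I display.

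Psmb8 and Psmb9 lie close together on chromosome 17 (mm10), and Psmb10 lies on chromosome 8. Psmb9 lies at 34182099 to 34187330 on the minus strand, and Tap1, which carries peptides into the endoplasmic reticulum, starts 225 bases away on the plus strand. Psmb8 lies at 34198195 to 34201454, 969 bases after Tap1. Psme1 and Psme2 lie 5912 bases apart on chromosome 14. A search of the RefSeq promoter table (GRCm38.p6, 250 bases before to 50 after a start, both strands) covered 44 windows of 41 members. An interferon-response-like pattern, GAAA, any 2 bases and GAAA, was in windows of 5 members and in 3.44% of all 32851 windows. The STAT-type pattern TTCNNNGAA was in windows of 3 members, Psmb8, Psmd2 and Psmg1, and in 8.30% of all windows. Of the members with either pattern, Psme1, Psmg4 and Psmb8 passed the test for the cells in tumor-free mice described further on. Psmb3, Psmd4, Psmd9, Psmd2 and Psmg1 passed in no comparison. A link between these patterns and the changes was not tested. The stretches that hold the interferon-response-like matches, and the STAT-type match of Psmb8, are shown with the match in capitals. They read 5′ to 3′ on the strand of the gene.
Psme1: cgagctgtgcTTTCGCTTTCccttcccgct
Psmg4: gcgcgcatctGAAAGTGAAAgagcgttccg
Psmb3: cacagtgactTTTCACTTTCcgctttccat
Psmd4: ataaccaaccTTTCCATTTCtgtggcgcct
Psmd9: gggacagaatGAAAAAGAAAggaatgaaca
Psmb8: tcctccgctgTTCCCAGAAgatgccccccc
The positions are chr14:55578493-55578522 for Psme1, chr13:34162969-34162998 for Psmg4, chr11:97703261-97703290 for Psmb3, chr3:95042675-95042704 on the minus strand for Psmd4, chr5:123228021-123228050 for Psmd9 and chr17:34198088-34198117 for Psmb8. GENCODE places the Psme1, Psmg4 and Psmb8 stretches in the 5′ UTR of a transcript. Psmb9, Psmb10, Psme2 and Psme2b had windows with neither pattern, which says only that these letters are not there. The antioxidant-response-like pattern TGACNNNGC was in windows of 6 members, Psmb5 and Psmb6 among them, and in 12.4% of all windows.

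**Figure D1:**
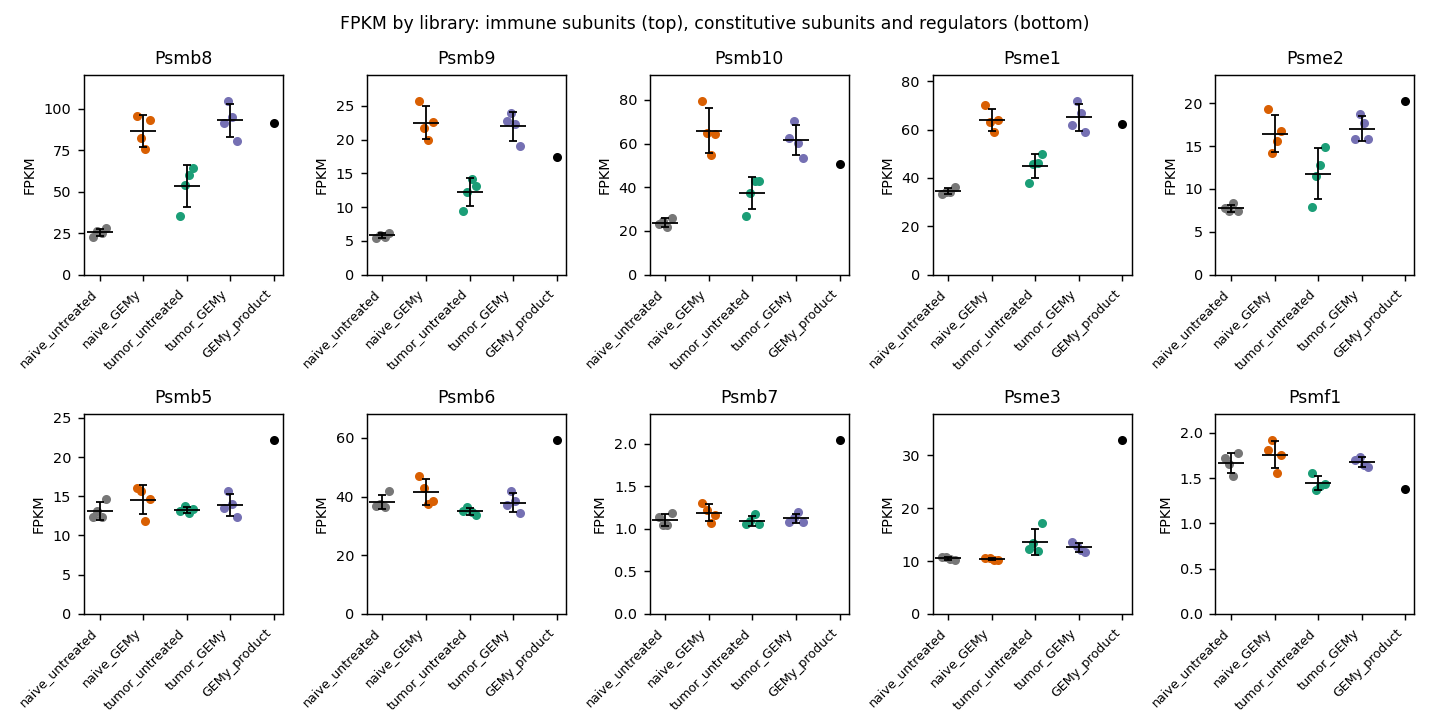
FPKM in each library for the 5 immune subunits (top) and for constitutive subunits and regulators (bottom); dots are libraries, and the wide bar and whiskers are the mean and SD of 4 libraries. All 4 libraries of both GEMy groups lie above all naive_untreated libraries in the top row, while Psmb5 and Psmb7 overlap between all 4 lung groups and Psmb6 in tumor_untreated ends just below naive_untreated.

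The immune catalytic subunits had the largest log2 fold changes of the 48 members in each of the 3 comparisons with an untreated group, except that Psme2b exceeded Psmb10 with the tumor. Psmb8, with chymotrypsin-like activity, measured 22.7, 26.4, 24.9 and 27.9 FPKM in naive_untreated lungs, 95.3, 82.0, 75.4 and 93.1 in naive_GEMy lungs, 35.3, 54.0, 60.2 and 64.1 in tumor_untreated lungs, and 91.6, 104.8, 94.7 and 80.3 in tumor_GEMy lungs. The naive_untreated libraries were all lower than every other lung library, and tumor_untreated lay between them and the 8 GEMy libraries. Psmb9 measured 5.42 to 6.19 FPKM in naive_untreated, 19.9 to 25.8 in naive_GEMy, 9.35 to 14.2 in tumor_untreated and 18.99 to 24.0 in tumor_GEMy. Psmb10, with trypsin-like activity, measured 21.6 to 26.1, 54.8 to 79.7, 26.8 to 42.7 and 53.4 to 70.3 in that order. For all 3 genes tumor_untreated lay between naive_untreated and both GEMy groups without overlap, while naive_GEMy and tumor_GEMy overlapped. The share of all genes that separate in this way was not counted.

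Of the constitutive catalytic subunits, Psmb5 and Psmb7 overlapped between all 4 lung groups. Psmb5 averaged 13.1 ± 1.11 FPKM in naive_untreated, 14.6 ± 1.88 in naive_GEMy, 13.3 ± 0.418 in tumor_untreated and 13.9 ± 1.41 in tumor_GEMy (SD, n = 4 each). Psmb6, with caspase-like activity, averaged 38.1 ± 2.50, 41.5 ± 4.45, 34.9 ± 1.09 and 37.9 ± 3.16 FPKM in that order. Psmb7, whose long introns lower its FPKM, averaged 1.10 ± 0.0674, 1.19 ± 0.0992, 1.09 ± 0.0596 and 1.12 ± 0.0558. The tumor_untreated libraries of Psmb6, at 33.7 to 36.4, lay just below those of naive_untreated, at 36.5 to 41.8, and this difference did not pass the test (adjusted p = 0.229, limma).

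In lungs of tumor-free mice given IL12-GEMy cells, 10 members were higher and 0 lower (limma, adjusted p under 0.05), against 5.6% of all genes higher and 1.5% lower. Psmb9 was higher by a log2 fold change of 1.86 ± 0.110 (SE, n = 4 and 4, adjusted p = 2.27e-08 from limma), Psmb8 by 1.74 ± 0.149 (adjusted p = 7.77e-07 from limma) and Psmb10 by 1.44 ± 0.140 (adjusted p = 2.84e-06 from limma). The 3 constitutive subunits had log2 fold changes of 0.08 to 0.14, none past the threshold. The PA28 genes Psme1 and Psme2 rose by 0.88 and 1.04, and Psme2b, a near copy of Psme2, by 1.05. The other 4 members that passed were Psmg4 at 0.37, a chaperone of core assembly, Psma7 at 0.35 and Psma5 at 0.30, both of the alpha ring, and Psmb2 at 0.24, a structural beta subunit. Psmg4 was below the pseudocount of 0.5 FPKM in naive_untreated. It reached the minimum of 0.5 FPKM in enough libraries only through naive_GEMy, where it was high. Its test was thus not independent of that filter. Its size ranged from 0.24 to 0.73 over the alternatives in which it was tested, with the call kept in each, no minimum among them. With a minimum of 1 FPKM it was not tested. The Psmb2 call was lost (highest adjusted p = 0.0853, limma) without naive_untreated replicate 1, 2 or 3 or naive_GEMy replicate 1 or 2. None of the 17 genes of the regulatory particle passed, with a median log2 fold change of 0.08. Over all 48 members the median was 0.10, and over all genes it was -0.02.

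In lungs of mice with a tumor and no cells, 12 members were higher and 2 lower, against 16.9% of all genes higher and 27.2% lower. The immune catalytic subunits rose by 1.02 (Psmb8, SE 0.149, adjusted p = 7.67e-05 from limma), 1.00 (Psmb9, SE 0.110, adjusted p = 5.42e-06 from limma) and 0.62 (Psmb10, SE 0.140, adjusted p = 0.00244 from limma). Psmb5, Psmb6 and Psmb7 had log2 fold changes of 0.02, -0.12 and -0.01, and none passed, though Psmb6 passed under quantile normalization (-0.19, adjusted p = 0.0251, limma). Lid subunits Psmd6, Psmd8 and Psmd12 rose by 0.21, 0.20 and 0.15, and Psma7 by 0.27. Psmg2, a chaperone of core assembly, fell by 0.19 on the log2 scale, and Psmf1, a proteasome regulator, fell by 0.16. The calls for Psmd12, Psmg4 and Psmf1 were lost in 10, 10 and 6 of the 16 fits that left out 1 library, and in 3, 3 and 2 of the other settings tried. With median-of-ratios scaling, 19 members were higher and 1 lower; the all-gene split moved with it, from 1733 higher and 2797 lower to 2191 and 2059.

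Among tumor-bearing mice, 6 members were higher and 0 lower with IL12-GEMy cells, against 3% of all genes higher and 3.72% lower. These were Psmb9 (0.83 ± 0.110 SE, adjusted p = 0.000302 from limma), Psmb8 (0.82), Psmb10 (0.73), Psme2b (0.61), Psme2 (0.54) and Psme1 (0.53). All 5 subunits that the rule contrasts with the rest were in this set, and of the 43 other members tested 1, Psme2b, was. The Psme2 call was lost without tumor_untreated replicate 2 or tumor_GEMy replicate 2 or 3 and with no minimum (adjusted p = 0.0522, limma). Fitting the tumor groups alone lost the calls of both Psme2 and Psme2b (adjusted p = 0.141 and 0.0715, limma) and the count fell to 4. This comparison and the preceding one share the tumor_untreated libraries, and the first and second share naive_untreated.

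Between the GEMy groups, tumor-bearing against tumor-free, 0 members were higher and 0 lower (limma), against 4.03% of all genes higher and 9.17% lower. At an unadjusted p under 0.05 there were 3 members. Psmb8 differed by 0.10 (95% interval -0.21 to 0.42), Psmb9 by -0.03 (-0.26 to 0.20) and Psmb10 by -0.09 (-0.39 to 0.20). Psme3, the nuclear PA28 gamma, had the largest member difference at 0.26 (adjusted p = 0.0584, limma), and it passed without tumor_untreated replicate 1, 3 or 4, with quantile normalization and with only the compared groups. Psmd6 was the 1 member called with median-of-ratios scaling (0.19), and it was chosen after its value was seen.

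The change with IL12-GEMy cells was smaller in tumor-bearing than in tumor-free mice for 4 members by the interaction term, with 0 larger, against 5.22% and 1.04% of all genes. The interaction was -1.03 ± 0.156 for Psmb9 (SE, adjusted p = 0.00213, limma) and -0.92 ± 0.211 for Psmb8 (adjusted p = 0.0165, limma). It was -0.71 for Psmb10 and -0.30 for Psmg4, a low gene whose value ranged from -0.59 to -0.18 over the alternatives. The calls for Psmb10 and Psmg4 were each lost in 13 of the 16 fits that left out 1 library, and those of Psmb8 and Psmb9 in none. The Psmb10 call was also lost in 4 of 9 other settings, among them median-of-ratios scaling, quantile normalization and no minimum (adjusted p = 0.0533, 0.0537 and 0.0764, limma). The Psmg4 call was lost in 5 of 8 other settings (highest adjusted p = 0.231, limma), among them no minimum (adjusted p = 0.0676, limma). Psmg4 passed the main minimum only through naive_GEMy, where it was high. Without tumor_untreated replicate 1 the count rose to 8, with Psma7, Psme1, Psme2 and Psme2b added. That library was the lowest of its group in 5 of the 5 immune subunits.

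**Figure D2:**
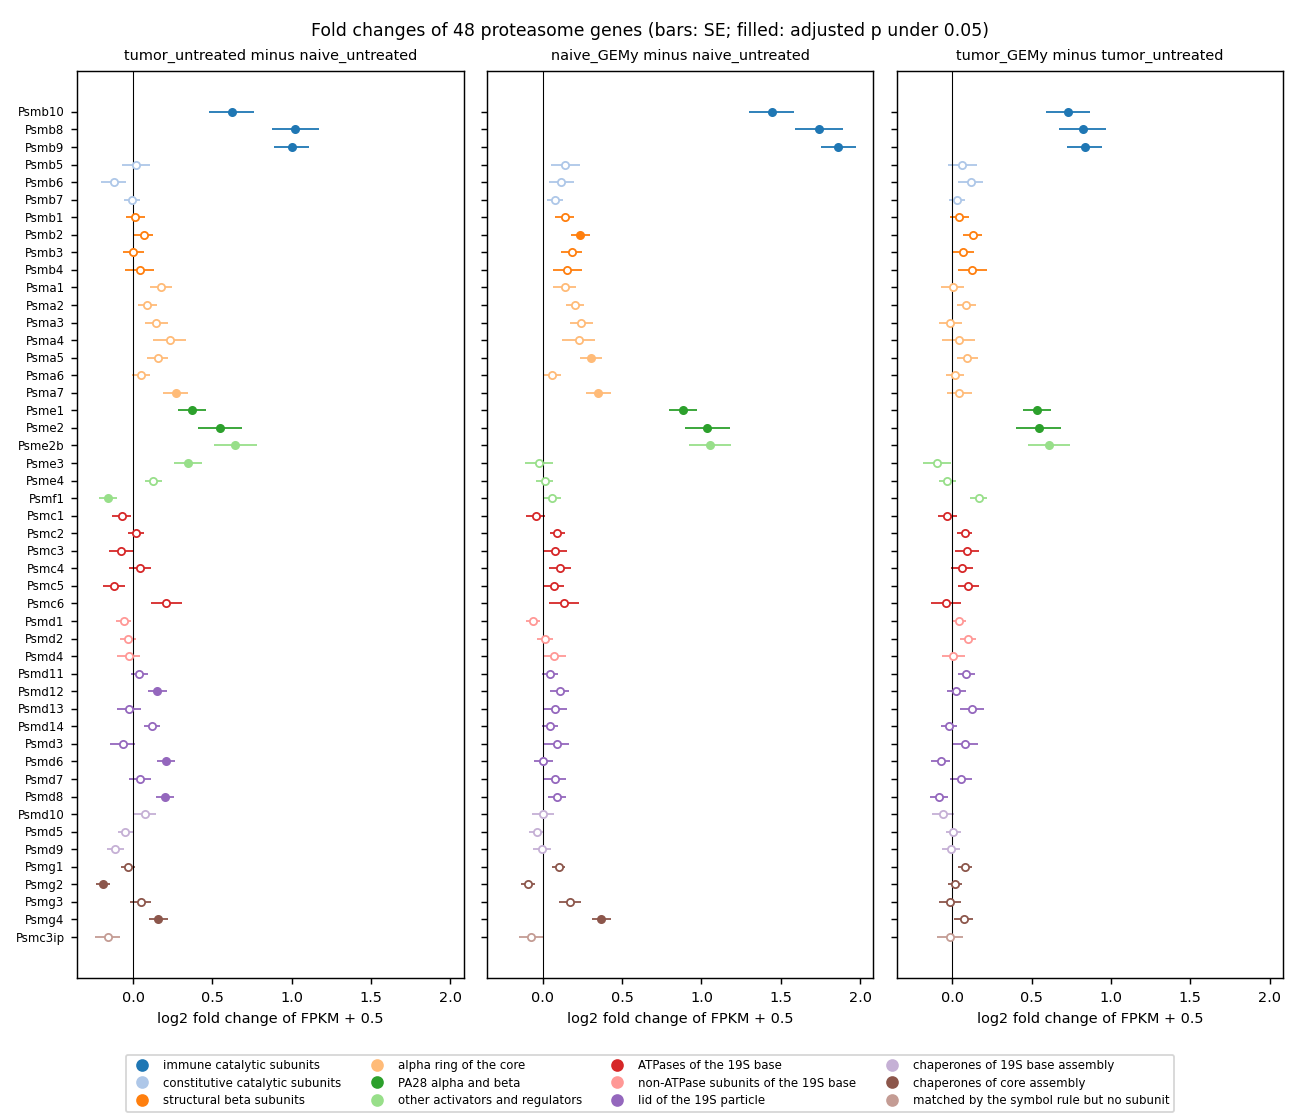
Log2 fold change of FPKM + 0.5 (horizontal, bars are SE) for the 48 tested members in 3 comparisons, colored by role; filled dots have an adjusted p under 0.05. The 3 immune catalytic subunits lie to the right in each panel and the 3 constitutive catalytic subunits near 0.

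The activators split by gene. Psme1 measured 33.1 to 36.1 FPKM in naive_untreated, 59.2 to 69.996 in naive_GEMy, 37.7 to 49.9 in tumor_untreated and 59.2 to 71.9 in tumor_GEMy. Its log2 fold changes were 0.88, 0.37 and 0.53 for naive_GEMy and tumor_untreated over naive_untreated and tumor_GEMy over tumor_untreated, all past the threshold. Psme3 showed another order, at 10.2 to 10.8 FPKM in naive_untreated, 10.1 to 10.6 in naive_GEMy, 11.8 to 17.2 in tumor_untreated and 11.8 to 13.5 in tumor_GEMy. The highest tumor_untreated value was in replicate 4, which also had the most hemoglobin reads (54149 RPM summed over 6 genes, against 5532 in the lowest library of that group), and the call held without it; the part of hemoglobin was not tested beyond a fit with it as a covariate, in which the call also held. It passed with the tumor in untreated mice (0.34, adjusted p = 0.00568, limma) and not with the cells in tumor-free mice (-0.02, 95% interval -0.21 to 0.17). Psme4, the PA200 activator, had log2 fold changes of 0.13, 0.01 and -0.03 for tumor_untreated, naive_GEMy and tumor_GEMy against their untreated partner, none past the threshold. The first passed with median-of-ratios scaling (adjusted p = 0.0214, limma), with quantile normalization (0.0253) and without naive_untreated replicate 3 (0.0459).

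Psme2 could not be separated from its near copy Psme2b, on chromosome 11 at 48945352 to 48946410. The GENCODE transcripts matched over 789 bases with 5 differences, all in the coding sequence, an identity of 99.4%. The 30 bases of each coding sequence with the most differences are shown, with the differing bases in capitals.
Psme2: ggaCgctgtagccaaggcttccaaggaCac
Psme2b: ggaTgctgtagccaaggcttccaaggaTac
Reads of the Psme2b locus made up 68.4 to 73.9% of the reads of both genes in all 17 libraries. Psme2 values recovered from the deposited FPKM were whole reads, within 0.1, in 6 libraries and Psme2b values in 5, while 41 of the 49 members were whole in all 17. How reads that match both were divided is not given in the sources used here, and the separate changes of these genes are uncertain. Summed over both, the level was 92.2 to 102.8 reads per 1000000 assigned reads (RPM) in naive_untreated, 181.0 to 242.2 in naive_GEMy, 110.5 to 195.5 in tumor_untreated and 220.7 to 248.4 in tumor_GEMy. Naive_untreated was below every other group, and tumor_untreated overlapped naive_GEMy.

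The ratio of an immune to a constitutive subunit does not depend on how a library is scaled. In assigned reads, Psmb8 over Psmb5 was 1.54 to 1.70 in naive_untreated, 4.41 to 5.33 in naive_GEMy, 2.27 to 4.05 in tumor_untreated and 5.47 to 5.70 in tumor_GEMy. Psmb9 over Psmb6 was 0.309 to 0.331, 1.06 to 1.23, 0.559 to 0.855 and 1.16 to 1.28 in that order. Psmb10 over Psmb7 was 0.967 to 1.12, 2.44 to 2.92, 1.22 to 1.93 and 2.35 to 2.97. The groups did not overlap for tumor_untreated or naive_GEMy against naive_untreated or for tumor_GEMy against tumor_untreated in any of the 3 ratios. For these 9 of the 12 ratio comparisons the exact two-sided permutation test gave p = 0.0286 each, the smallest that 4 against 4 allows. After Benjamini-Hochberg adjustment over 12 the exact p was 0.0343. These comparisons share libraries and are not independent of one another. How often ratios of other genes separate in this way was not counted. Psmb9 over Psmb6 rose 3.56-fold with the cells in tumor-free mice and 1.68-fold in tumor-bearing mice. Between the GEMy groups, Psmb8 over Psmb5 was 1.12-fold higher with a tumor, without overlap (exact permutation p = 0.0286, adjusted 0.0343), and the other 2 ratios overlapped (adjusted exact p = 0.187 and 0.943).

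Per base of the GENCODE principal transcript, the level of Psmb8 was on average 0.902 of that of Psmb5 in naive_untreated and 2.77 in naive_GEMy. Per base of coding sequence, a measure added after the values were seen, it was 1.56 and 4.80. The order of Psmb8 and Psmb5 in untouched lung therefore depended on the length used. Psmb9 stayed below Psmb6 in naive_untreated by either length (0.188 and 0.346), and in naive_GEMy it was below by transcript length and above by coding length (0.670 and 1.23).

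**Figure D3:**
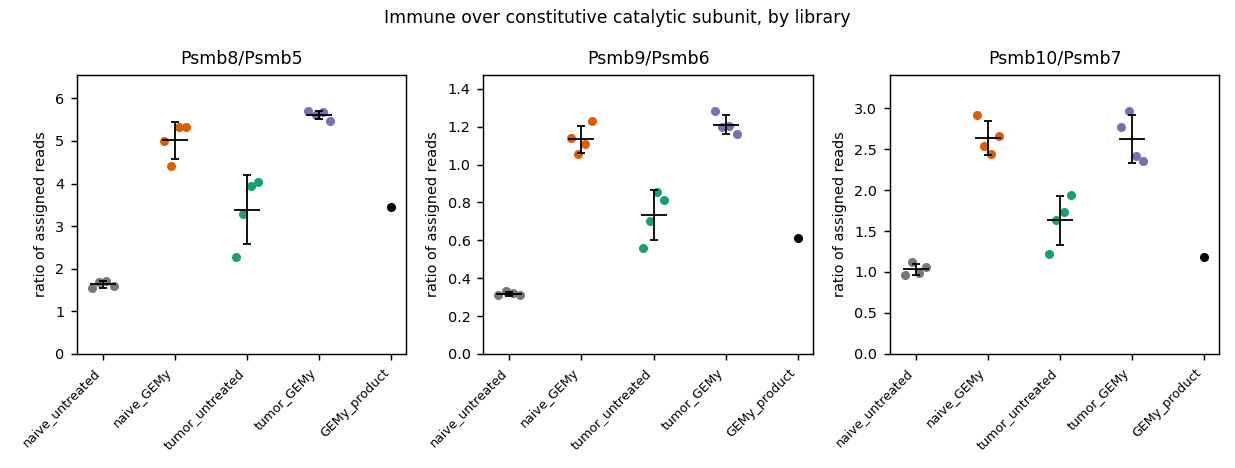
Ratio of assigned reads of each immune catalytic subunit to the constitutive subunit whose place it takes, by library; bars and whiskers are the mean and SD of 4 libraries. Naive_untreated is lowest in each panel and the GEMy groups highest.

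The remaining core genes moved little, apart from the core assembly chaperone Psmg4. The 7 alpha ring genes had positive log2 fold changes in all 7 cases with the tumor and with the cells in tumor-free mice, with medians of 0.15 and 0.23. Over all genes 41.2% and 44.6% were positive, with medians of -0.05 and -0.02. Of the 7, 1 passed with the tumor, close to the 16.9% of all genes called higher, and 2 passed with the cells, where 5.6% of all genes did. Psma7 measured 11.7 to 12.8 FPKM in naive_untreated and 14.9 to 17.4 in naive_GEMy, which did not overlap. The 4 core assembly chaperones differed among themselves. Psmg4 rose from 0.327 to 0.354 FPKM in naive_untreated to 0.541 to 0.661 in naive_GEMy, Psmg2 had a log2 fold change of -0.09 there, and Psmg1 and Psmg3 had 0.10 and 0.17 without passing. Psmf1 averaged 1.67 ± 0.111 FPKM in naive_untreated, 1.76 ± 0.151 in naive_GEMy, 1.44 ± 0.0799 in tumor_untreated and 1.68 ± 0.0530 in tumor_GEMy (SD, n = 4 each). Tumor_untreated was the lowest group, and its highest library, at 1.56, overlapped the lowest naive_untreated library, at 1.52. Among the regulatory particle genes, Psmd6 averaged 4.25 ± 0.229, 4.26 ± 0.117, 4.99 ± 0.225 and 4.72 ± 0.403 FPKM in the same order (SD, n = 4 each), with no overlap between naive_untreated and tumor_untreated. The 6 ATPases had a median log2 fold change of -0.03 with the tumor, 0.08 with the cells in tumor-free mice and 0.07 in tumor-bearing mice, and none passed. The 3 chaperones of base assembly, Psmd5, Psmd9 and Psmd10, had medians of -0.05, 0.00 and -0.01, and none passed. Psma8 stayed under 0.01 FPKM in every lung library.

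Genes that work with the proteasome, taken from a list of 26 of which 21 were tested, gave 3 higher and 3 lower with the tumor, 2 higher and 0 lower with the cells in tumor-free mice and 0 in tumor-bearing mice. The all-gene shares were 16.9% higher and 27.2% lower with the tumor, so the counts with the tumor were not above the background. With the cells those shares were 5.6% and 1.5% in tumor-free mice and 3% and 3.72% in tumor-bearing mice. The lowest log2 fold change of the list with the tumor was -0.25. Only the 2 called genes with the largest absolute changes are named. Ubd, a ubiquitin-like tag for degradation, rose by 2.47 with the tumor and 2.12 with the cells in tumor-free mice. It was near 0 in naive_untreated lungs, and the size depended on the pseudocount and unit, from 1.80 to 4.20 and from 1.45 to 3.86 over the alternatives, with the call kept in each. Pomp, which helps assemble the core, rose by 0.28 and 0.33. Tap1 rose by 1.49 with the tumor and 2.46 and 1.05 with the cells in tumor-free and tumor-bearing mice. Tap2 rose by 0.71, 1.48 and 0.83.

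Lung is a mix of cells, and a change here can be more cells of a type or more RNA per cell, which bulk libraries cannot tell apart. The summed RPM of 10 leukocyte genes were 1492 to 1909 in naive_untreated, 2127 to 2846 in naive_GEMy, 3159 to 5055 in tumor_untreated and 2918 to 3695 in tumor_GEMy. That list reached its highest sums in tumor_untreated, and Psmb8 its highest FPKM in the GEMy groups. Psmb8 RPM over the sum was 0.0431 to 0.0495 in naive_untreated and 0.0365 to 0.0451 in tumor_untreated, which overlapped. In naive_GEMy it was 0.1065 to 0.1248 and in tumor_GEMy 0.0711 to 0.1058. With the tumor, 10 of 10 neutrophil genes were called higher, against 16.9% of all genes. The cells gave 0 of 10 higher in tumor-free mice, against 5.6%, and 4 of 10 lower in tumor-bearing mice, against 3.72%. Of 10 epithelial and endothelial genes 8 were called lower with the tumor, against 27.2%, and of 5 tested B cell genes 4. The 10 T and NK cell genes summed to 98.4 to 140.7 in naive_untreated, 204.8 to 311.7 in naive_GEMy, 141.7 to 289.5 in tumor_untreated and 268.5 to 348.4 in tumor_GEMy. The tumor_untreated range overlapped both GEMy groups. Of the 10 T and NK cell genes, 7 were called higher with the tumor, against 16.9% of all genes. With the cells, 4 were called higher in tumor-free mice, against 5.6%, and 2 in tumor-bearing mice, against 3%. Median log2 fold changes of this list were 0.48, 0.13 and 0.14 in that order. A few genes rose far more than the median, up to 2.32 with the cells in tumor-free mice. The part of these cell types in the results was not tested. Assigned reads were 27566840 to 36815046 per lung library.

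**Figure D4:**
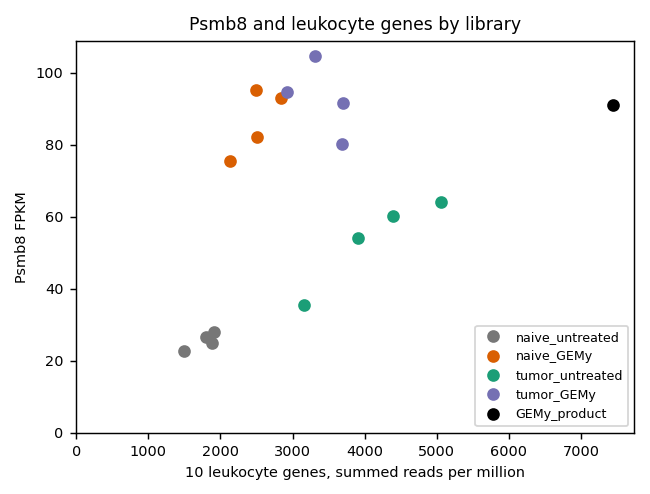
Psmb8 FPKM against the summed RPM of 10 leukocyte genes, 1 dot per library. All 8 GEMy lung libraries have more Psmb8 than all tumor_untreated libraries, with sums of up to 3695 against up to 5055. The tumor_untreated libraries have both more Psmb8 and larger sums than all naive_untreated libraries.

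Most members were higher in the cell product than in any lung library, 43 of 48 against 42.9% of all genes. Of the 48 tested members, 28 were at least 2-fold higher than the naive_untreated mean, against 22.4% of all genes, and 0 were at least 2-fold lower, against 29.9%. The 5 members not above every lung library were Psmb8, Psmb9, Psmb10, Psme1 and Psmf1. Psmb8 measured 91.0 FPKM in the product and up to 104.8 in lungs, and Psmb10 50.7 and up to 79.7. Psmb5, Psmb6 and Psmb7 measured 22.2, 59.3 and 2.04 FPKM, above lung maxima of 16.0, 47.1 and 1.30. The read ratios in the product were 3.45 for Psmb8 over Psmb5, 0.613 for Psmb9 over Psmb6 and 1.19 for Psmb10 over Psmb7. Each was below every library of both GEMy lung groups and above every naive_untreated library. The median fold over the naive_untreated mean was 3.00 for the immune and 1.69 for the constitutive catalytic subunits. The largest folds, leaving aside Psmc3ip, were 3.97 for Psmd14, the deubiquitinase of the lid, 3.63 for Psmg1 and 3.61 for Psmc6, an ATPase, and Psmf1 was the lowest at 0.827. With 1 product library these are values without a replicate check.

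**Figure D5:**
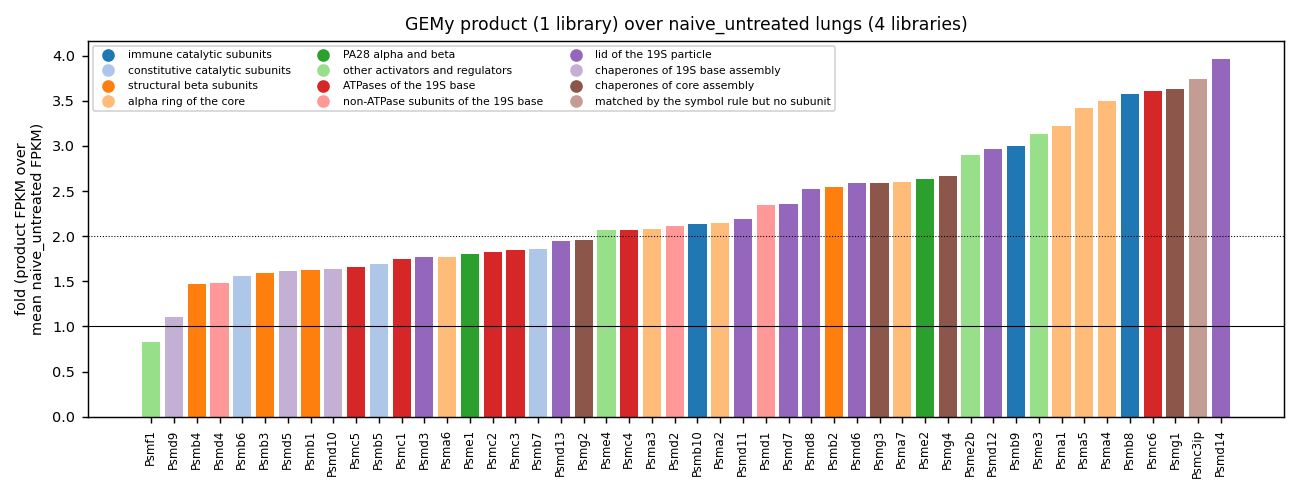
FPKM in the product library over the mean of 4 naive_untreated libraries for each tested member, ordered by fold and colored by role; lines mark folds of 1 and 2. Of 48 bars, 28 reach 2 and 1, Psmf1, lies below 1.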

How the data were processed

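RNA from flash frozen lung was sequenced with standard Illumina protocols, per the labels. Tools listed in the submitters' processing notes are STAR 2.7.3a and Partek, with build mm10; annotation and settings are not given in the sources used here. The authors deposited FPKM for 18262 genes. FPKM times the listed genomic span, introns included, sums to 1000000 per library, and the smallest step gave the assigned reads; among values below 1000 reads, 86.6 to 88.5% lay within 0.02 of a whole number. Per-span FPKM lowers genes with long introns.

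limma 3.58.1 (R 4.3.3; trend, robust) fitted 4 group means to log2(FPKM + 0.5) of 16 lungs, with Benjamini-Hochberg adjustment over 10284 genes at 0.05; fold changes of low genes are understated. It was tested on simulated data. Ratios had exact permutation tests. Python 3.11.15 and matplotlib 3.10.9 drew figures. Named were the catalytic subunits, activators, regulators and core chaperones, up to 4 other called members per direction, Tap1, Tap2 and the 2 most changed associated genes; other names were chosen after their values were seen. Psmb11 was not analysed here. Members and lists were chosen with earlier results of these data known. Alternatives covered pseudocount, minimum, scaling, length, groups fitted, replicate block, hemoglobin covariate and leaving out each library.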

Additional observations from a re-analysis of the deposited data

Results flagged for a closer look

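For 4 of the 48 tested members the change with IL12-GEMy cells differed between tumor-bearing and tumor-free mice by the interaction term (limma). All 4 were negative, against 5.22% of all genes called negative and 1.04% called positive. These were Psmb9 by -1.03 on the log2 scale (adjusted p = 0.00213), Psmb8 by -0.92 (adjusted p = 0.0165), Psmb10 by -0.71 (adjusted p = 0.0432) and Psmg4 by -0.30 (adjusted p = 0.0479), all from limma. The calls for Psmb10 and Psmg4 were each lost in 13 of the 16 fits that left out 1 library. They were also lost in 4 of 9 and 5 of 8 other settings.

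Of 100 groups of 4 libraries checked, 4 had a library far from the other 3, and chance gives about 1 in 20. Psma5 measured 1.65 FPKM in naive_GEMy replicate 1 against 1.46 to 1.49. Psmg4 measured 0.661 FPKM in that library against 0.541 to 0.557. In naive_untreated replicate 4, Psmg1 measured 0.799 FPKM against 0.714 to 0.717 and Psmg4 0.354 against 0.327 to 0.328.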

How the results depend on the processing

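Of 101 values for named genes, 86 kept their call under every alternative run, and none reversed. Among counts of called members, the tumor comparison in untreated mice gave 19 higher and 1 lower with median-of-ratios scaling, 4 lower with quantile normalization, and 1 lower with a minimum of 1 FPKM or only the compared groups. Tumor_GEMy over naive_GEMy gave 1 higher with median-of-ratios scaling, quantile normalization or only the compared groups. The interaction gave 2 members with no minimum and with quantile normalization. Leaving out 1 library gave 10 to 17 higher and 1 to 2 lower for the tumor, 9 to 12 higher and 0 lower for the cells in tumor-free mice, 5 to 6 higher and 0 lower in tumor-bearing mice, 0 to 1 higher and 0 lower between GEMy groups, and 2 to 8 for the interaction. The tumor count of lower members was 1 without naive_untreated replicate 1 or 2 or tumor_untreated replicate 2, 3 or 4. All-gene splits of higher and lower calls moved from 576 and 154 to 487 and 290 (cells in tumor-free mice) and from 107 and 537 to 223 and 406 (interaction) with quantile normalization, and from 414 and 943 to 553 and 414 (between GEMy groups) with median-of-ratios scaling.

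By group medians the smallest exact permutation p of 4 against 4 is 0.0571, and without 1 library it is also 0.0571, so no ratio comparison could pass and these are values without a test. The group medians moved each log2 ratio difference by less than the library SD. Without 1 library the differences for the tumor, the cells in tumor-free mice, the cells in tumor-bearing mice and between GEMy groups were 0.92 to 1.20, 1.59 to 1.68, 0.58 to 0.86 and 0.11 to 0.20 for Psmb8/Psmb5, 1.10 to 1.31, 1.79 to 1.87, 0.62 to 0.83 and 0.06 to 0.13 for Psmb9/Psmb6, and 0.55 to 0.78, 1.30 to 1.39, 0.57 to 0.79 and -0.07 to 0.04 for Psmb10/Psmb7.

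Same-numbered libraries of different groups deviated together in part: r was -0.313 to 0.594, with 12 of 24 pairs over 0.1, and in no pair of groups were all 4 numbers over 0.1. A library correlated best with its own number in 18 of 48 cases, where 12 would be so with no pairing. A part shared by number is thus not excluded. The main fit did not take the numbers as pairs. With the replicate block the counts were 13 and 2, 11 and 0, 6 and 0, 0 and 0, and 3 for the interaction, in which the Psmb10 call was lost (adjusted p = 0.0553, limma).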
